A study of Mus musculus with 20 samples.

Results

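Saa3, Lcn2, Hp, Ptx3 and Orm1, genes whose secreted products belong to the acute phase response, were followed in the abdominal aorta of WT and LH1-deficient mice. They are 5 of the 43422 genes with an FPKM in each mouse, a unit that scales the fragments counted for a gene by its transcript length and by the size of the library. The 5 genes were picked by name with earlier results of these data known, and Saa3 and Hp were picked because they stood near the top of the response of Plod1-/- mice to Ang II. For that response the values of all 5 genes are therefore given as a description with no p-value, and Saa3 and Hp are also untested in every comparison that shares those mice.

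The acute phase response is the change in secreted proteins that follows injury or infection, and it is best known in the liver, where interleukin 6 and interleukin 1 drive it through STAT3, C/EBP and NF-kB. Several of its genes are also transcribed outside the liver, in macrophages, fibroblasts, smooth muscle cells and adipocytes, which makes them local markers of inflammation. Saa3 is the member of the serum amyloid A family that mouse tissues other than the liver transcribe, and its protein is a lipid-binding apolipoprotein. Lcn2 encodes lipocalin 2, which binds iron-loaded bacterial siderophores and forms a complex with the gelatinase MMP9. Ptx3 encodes a long pentraxin that binds C1q, FGF2, P-selectin and TNFAIP6. Hp encodes haptoglobin, the plasma protein that captures free hemoglobin for uptake by CD163. Orm1 encodes alpha-1-acid glycoprotein, a plasma carrier of lipids and drugs.

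RNA was sequenced from 20 mice on day 14. There were 4 groups of 5, and WT and Plod1-/- mice were each studied under saline and under Ang II. Ang II (angiotensin II) was infused at 1000 ng/kg per minute, a model of dissecting abdominal aortic aneurysm, and saline was the control infusion. Plod1 encodes lysyl hydroxylase 1 (LH1), an enzyme of collagen crosslinking, and it was deleted in every cell of the Plod1-/- mice, so that the model is not limited to the vessel wall. The labels give an age of 6 months, whereas the study's methods give a younger age, male sex and a C57Bl/6NCrl background. In whole tissue, fewer cells of a type and less RNA per cell cannot be told apart.

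Plod1 lay between 22.8 and 29.7 FPKM in WT mice and did not exceed 0.0415 FPKM in Plod1-/- mice. The FPKM sum of a library ran from 344207 to 437790, and the number of reads behind each value is unknown. Mitochondrial genes took a median of 24.5% of that sum in WT mice under Ang II and 9.92% to 13.9% in the other groups. Xist, an RNA of female cells, reached 15.1 FPKM in replicate 5 of the saline-treated Plod1-/- mice and 7.93 FPKM in replicate 1 of the Ang II-treated Plod1-/- mice. Of 8 hepatocyte markers, Alb did not exceed 1.66 FPKM and Cps1 0.0623 FPKM in any mouse, whereas Ahsg reached 40.4 FPKM in a saline-treated WT mouse and Ttr 14.5 FPKM in an Ang II-treated Plod1-/- mouse. The sum of the 8 ran from 3.96 to 44.7 FPKM over all mice, and its part in the members' values was not tested. Ang II-treated WT replicate 1 stood apart for the acute phase genes, so its effect on the comparisons is given beside them.

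The promoters of Saa3, Lcn2 and Ptx3 are shown because these genes are known targets of the factors named above. The RefSeq promoters used here, for GRCm38.p6, matched 3 of the 5 genes. The 250 bases before each RefSeq start are printed 5′ to 3′ on the gene's strand, with capitals marking each match to the C/EBP-like letters TTNNGNAA on either strand. Gene positions given below are from GENCODE mouse release 21. The RefSeq starts of Saa3 and Lcn2 lie inside those positions, and the whole window of Lcn2 does.
Saa3, chr7:46715677-46715926, minus strand: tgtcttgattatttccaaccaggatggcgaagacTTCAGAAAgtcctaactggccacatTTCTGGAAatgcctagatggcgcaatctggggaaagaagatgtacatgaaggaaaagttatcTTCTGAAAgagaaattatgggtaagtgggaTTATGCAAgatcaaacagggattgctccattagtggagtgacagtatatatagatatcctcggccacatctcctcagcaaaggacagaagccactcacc
Lcn2, chr2:32387740-32387989, minus strand: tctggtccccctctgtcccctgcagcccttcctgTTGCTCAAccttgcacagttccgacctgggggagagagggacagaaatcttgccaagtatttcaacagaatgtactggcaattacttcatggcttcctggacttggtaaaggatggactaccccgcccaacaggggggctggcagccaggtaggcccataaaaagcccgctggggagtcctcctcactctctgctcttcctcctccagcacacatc
Ptx3, chr3:66219637-66219886, plus strand: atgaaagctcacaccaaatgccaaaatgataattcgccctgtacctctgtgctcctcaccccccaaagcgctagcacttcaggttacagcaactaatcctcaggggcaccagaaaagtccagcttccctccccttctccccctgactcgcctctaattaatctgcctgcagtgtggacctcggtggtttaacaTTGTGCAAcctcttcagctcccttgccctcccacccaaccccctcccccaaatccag
The Saa3 promoter held 4 matches and those of Lcn2 and Ptx3 held 1 each. These letters are common, since 36.9% of all 32851 promoters of this length in the table hold a match. The letters TTCNNNGAA (STAT-like) and TGANTCA (AP-1-like), and GGG and TTCC with 3 bases between them (NF-kB-like), occurred on either strand in 7.02%, 6.75% and 4.65% of promoters and in none of these 3 windows. A match is a description of the letters and does not show that a factor binds there.

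Saa3 (ENSMUSG00000040026, GRCm38 chromosome 7, 46711998 to 46715700, minus strand) was close to 0 in all saline-treated mice and above 7 FPKM in all Ang II-treated Plod1-/- mice. In saline-treated WT mice its FPKM was 0.306, 0.156, 0.0283, 0.257 and 0.12 in replicates 1 to 5. In Ang II-treated WT mice it was 973, 0.123, 0.0737, 3.53 and 35.3. Replicates 2 and 3 thus stayed at the saline level while replicate 1 held the highest value of all 20 mice. The FPKM was 0.162, 0.194, 0.643, 0.188 and 0.301 in saline-treated Plod1-/- mice, and 8.90, 18.0, 7.03, 9.38 and 13.9 in Ang II-treated Plod1-/- mice. The groups of Plod1-/- mice did not overlap, and the spread among Ang II-treated mice was far narrower in Plod1-/- than in WT mice.

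Lcn2 (ENSMUSG00000026822, chromosome 2, 32384633 to 32388252, minus strand) followed Saa3 across mice but had a higher FPKM under saline. Its FPKM was 0.760, 1.92, 2.70, 1.97 and 3.21 in saline-treated WT mice and 218, 3.94, 1.86, 1.93 and 17.4 after Ang II. Replicates 1 and 5 were again the highest of the Ang II-treated WT mice, and replicates 3 and 4 lay within the saline range. In Plod1-/- mice the FPKM was 1.04, 2.52, 1.67, 0.895 and 1.43 under saline and 12.4, 71.1, 28.0, 41.8 and 50.4 under Ang II. All 5 Ang II-treated Plod1-/- mice were above every saline-treated mouse of either genotype.

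Ptx3 (ENSMUSG00000027832, chromosome 3, 66219910 to 66225805, plus strand) was the member whose FPKM was high in Ang II-treated Plod1-/- mice and low in nearly all others. Its FPKM was 12.3, 19.8, 11.8, 28.3 and 42.0 in that group and 0.353, 0.653, 0.994, 0.627 and 0.439 in saline-treated Plod1-/- mice. In WT mice it was 2.69, 2.51, 0.687, 3.81 and 0.760 under saline and 6.11, 0.265, 0.258, 0.403 and 0.543 under Ang II. Except for replicate 1, every Ang II-treated WT mouse was below every saline-treated WT mouse. Ptx3 lies inside Veph1, a gene of the other strand that libraries without strand information cannot separate from it, but Veph1 did not exceed 0.0469 FPKM in any mouse.

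Hp (ENSMUSG00000031722, chromosome 8, 109575128 to 109579172, minus strand) had the highest FPKM of the 5 genes in all 20 mice. It was 22.3, 23.8, 68.1, 14.9 and 90.4 FPKM in saline-treated WT mice and 4689.9, 598, 391, 102 and 606 FPKM in Ang II-treated WT mice. The groups did not overlap, and the lowest Ang II-treated mouse, replicate 4, was close to the highest saline-treated mouse. The FPKM was 113, 266, 57.7, 19.7 and 16.3 in saline-treated Plod1-/- mice and 869, 6198, 1419, 2586 and 4043 in Ang II-treated Plod1-/- mice. Hp was above 1000 FPKM in 4 of the 5 mice of this group, a level that the other members did not reach in any mouse.

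Orm1 (ENSMUSG00000039196, chromosome 4, 63344560 to 63348163, plus strand) had the opposite order of the Ang II-treated groups. Its FPKM was 2.48, 2.19, 8.47, 0.624 and 7.13 in saline-treated WT mice and 431, 89.7, 65.9, 21.3 and 121 in those given Ang II. The Plod1-/- mice had 4.84, 24.9, 6.19, 1.94 and 4.93 FPKM under saline and 14.7, 25.2, 15.5, 24.4 and 48.3 under Ang II. The median was therefore highest in Ang II-treated WT mice, at 89.7 FPKM, against 24.4 FPKM in Ang II-treated Plod1-/- mice. Orm1 shares 20.4% of its 50-base runs with Orm2 and 2.2% with Orm3, so reads may be divided among them, whereas Saa3 shares 0.346% of its runs with Saa1 and 0 with Saa2 or Saa4.

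**Figure D1:**
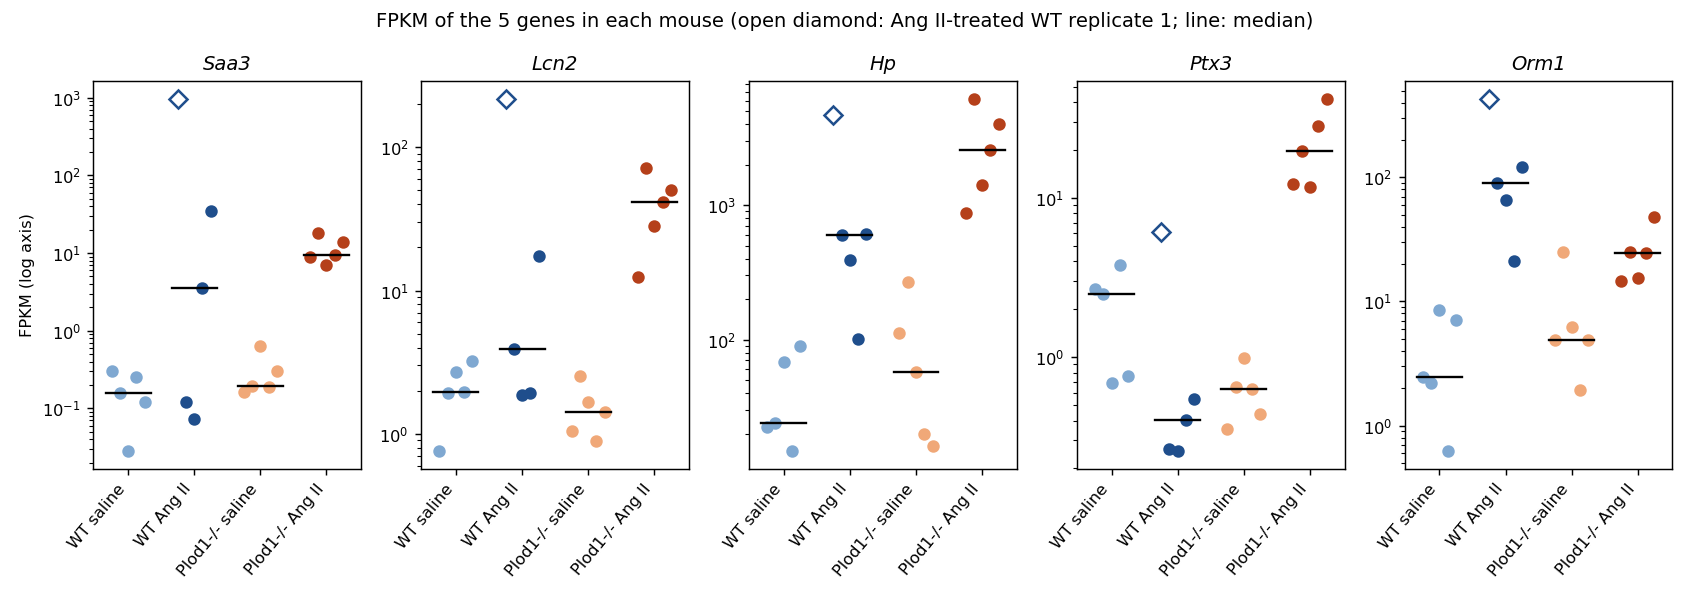
FPKM (log axis) of Saa3, Lcn2, Hp, Ptx3 and Orm1 in each of 20 mice, with 5 mice per group, a line at the median and an open diamond for Ang II-treated WT replicate 1. Saa3 ran from 7.03 to 18.0 FPKM in Ang II-treated Plod1-/- mice, and the diamond lies above its group for all 5 genes.

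In WT mice, Hp and Orm1 were upregulated by Ang II, and these were the 2 called of the 5 genes, against 6.38% of all 11994 genes tested called as higher. limma was fitted to log2(FPKM + 1), on which low genes show too small a change. To be called a differentially expressed gene (DEG), a gene needed a log2 fold change of more than 1 in either direction with a p-value under 0.05 after Benjamini-Hochberg adjustment. The log2 fold change of Hp was 4.04 (SE 0.85, limma adjusted p = 0.00596), which is 16.4-fold, and that of Orm1 was 4.46 (SE 0.70, limma adjusted p = 0.00206), which is 22.0-fold. Both were higher in 5 of 5 Ang II-treated mice than in any saline-treated mouse, as were 10.4% of all genes tested. Without Ang II-treated replicate 1 both stayed called, at 3.29 (limma adjusted p = 0.00548) and 3.91 (limma adjusted p = 0.00383), beside 6.11% of all genes.

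The other members were not called in WT mice with all mice included. For Lcn2 the estimate was 1.89 (SE 1.01, limma adjusted p = 0.149), and 0.81 without replicate 1. Saa3 and Ptx3 did not reach 1 FPKM in 5 of the 10 WT mice and were each given an exact permutation test (two-sided), which for groups of 5 cannot give a p under 0.00794. The difference was 3.29 for Saa3 (exact permutation p = 0.127) and -0.58 for Ptx3 (exact permutation p = 0.373). Without replicate 1 it was 1.68 for Saa3 (exact permutation p = 0.127), and for Ptx3 it was -1.06 with an exact permutation p of 0.0317. That is past the size of a call, but the p is unadjusted and the mouse left out was singled out after the data were seen.

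In Plod1-/- mice, the contrast that picked Saa3 and Hp, the log2 fold change was 5.38 for Hp, 3.88 for Lcn2, 3.74 for Ptx3, 3.20 for Saa3 and 1.76 for Orm1. Ordered by log2 fold change among 12333 genes, Hp was number 5, Lcn2 number 35, Ptx3 number 43, Saa3 number 84 and Orm1 number 457. The groups did not overlap for 4 of the 5 genes, against 14.2% of all genes tested in that direction. Orm1 was the exception, since saline-treated replicate 2, at 24.9 FPKM, was above 3 of the Ang II-treated mice. The contrast had 8.38% of genes called as higher under Ang II.

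Between the Ang II-treated genotypes, Ptx3 was called as higher and Orm1 as lower in Plod1-/- mice, against 11.1% of all 12356 genes called in either direction. The log2 fold change of Ptx3 was 3.49 (SE 0.51, limma adjusted p = 0.00178), an 11.3-fold difference, with 5 of 5 Plod1-/- mice above every WT mouse, as for 10.4% of all genes tested. It was 3.97 without Ang II-treated WT replicate 1 (limma adjusted p = 2.02e-04). As 4 of the 5 WT mice were under 1 FPKM, Ptx3 passed the filter through the Plod1-/- mice. With no filter its adjusted p was 0.00780, and an exact permutation test gave the smallest p that these groups allow, 0.00794. The log2 fold change of Orm1 was -1.94 (SE 0.65, limma adjusted p = 0.0420), and the groups overlapped. The call of Orm1 held in 2 of the 10 fits that left out 1 mouse each, whose adjusted p ran from 0.00851 to 0.0937, and without Ang II-treated WT replicate 1 the log2 fold change was -1.39 (limma adjusted p = 0.0550).

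Between the Ang II-treated genotypes, Lcn2 differed by 1.71 on the log2 scale (SE 1.07, limma adjusted p = 0.242). Without Ang II-treated WT replicate 1 it was 2.78 (SE 0.61, limma adjusted p = 0.00865), which is a call, where 12.5% of all genes were called. Saa3 and Hp, which were not tested here, differed by 0.05 and 2.04 on the log2 scale with all mice and by 1.66 and 2.79 without that replicate. The values of Hp in the remaining 4 Ang II-treated WT mice, at most 606 FPKM, were then all below the lowest Plod1-/- value of 869 FPKM, while Saa3 still overlapped because WT replicate 5 was at 35.3 FPKM.

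Under saline, 0 of the 3 genes tested were called between genotypes, where limma called 0.767% of 11999 genes. Lcn2 differed by -0.29 on the log2 scale (SE 0.24, limma adjusted p = 0.456) and Orm1 by 0.75 (SE 0.60, limma adjusted p = 0.434). Ptx3, below the filter, was lower in Plod1-/- mice by a difference of -0.83 with an exact permutation p of 0.0397, which is under 1 in size and so not a call. Of the 3 genes, Ptx3 alone had an unadjusted p under 0.05. Saa3 and Hp, untested, differed by 0.14 and 0.69 on the log2 scale.

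The interaction of genotype and treatment, which asks whether the response to Ang II differed between genotypes, was past the threshold for Ptx3 and Orm1 in opposite directions, against 16.1% of 13263 genes. For Ptx3 the response of Plod1-/- mice exceeded that of WT mice by 4.32 on the log2 scale (SE 0.62, limma adjusted p = 8.67e-05). Here too, Ptx3 passed the filter through the Ang II-treated Plod1-/- mice. Over the 8 alternative fits, 1 of them with no filter, its limma adjusted p was at most 4.17e-04. For Orm1 the response of Plod1-/- mice was smaller, by -2.70 (SE 0.94, limma adjusted p = 0.0305), and by -2.15 without Ang II-treated WT replicate 1 (SE 0.84, limma adjusted p = 0.0497). This call of Orm1 held in 15 of the 20 fits that left out 1 mouse each, whose adjusted p ran from 0.00670 to 0.0605. For Lcn2 the interaction was 1.99 (SE 1.17, limma adjusted p = 0.187), and 3.07 without Ang II-treated WT replicate 1 (SE 0.68, limma adjusted p = 0.00202), where 17.9% of all genes were called. The untested values of Saa3 and Hp were -0.08 and 1.34, and 1.52 and 2.09 without that replicate, so that Saa3 changed sign.

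**Figure D2:**
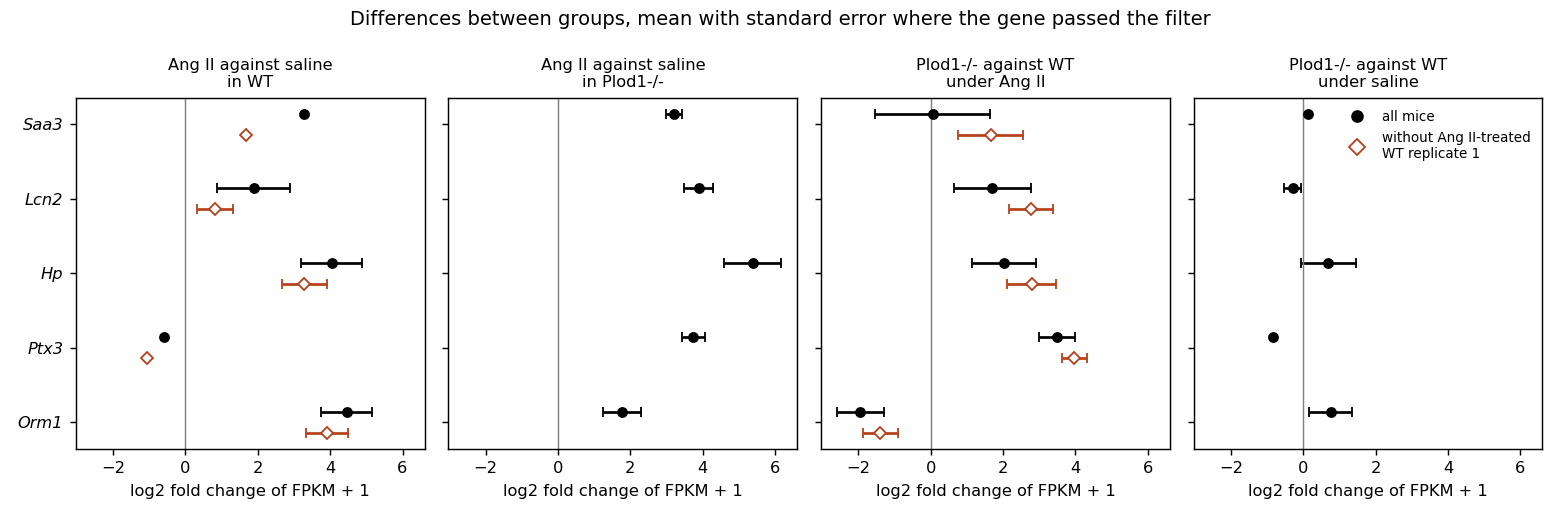
Log2 fold change of FPKM + 1 for each of the 5 genes in 4 comparisons, with all mice (filled circles) and without Ang II-treated WT replicate 1 (open diamonds), and the standard error where limma fitted the gene. Between the Ang II-treated genotypes Lcn2 moves from 1.71 to 2.78 and Saa3 from 0.05 to 1.66 when that mouse is left out, while Ptx3 is the highest in both.

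Ang II-treated WT replicate 1 carried the highest FPKM of all 20 mice for 3 of the 5 genes, Saa3, Lcn2 and Orm1, and for 13 of the 21 other acute phase genes that reached 1 FPKM in a mouse. It held Serpina3n, a serine protease inhibitor, at 1608 FPKM, Itih4 at 788 FPKM and the complement gene C3 at 789 FPKM. Among close relatives of the members, Saa1, Saa2 and Orm2 were at 3.11, 4.58 and 24.4 FPKM in this mouse and at no more than 0.478, 1.14 and 1.78 FPKM in the other 19. Its Il6, at 0.121 FPKM, was within the saline range. The summed FPKM of 12 neutrophil markers was 222 in this mouse and 7.48 to 54.2 in the other Ang II-treated WT mice, and that of 8 macrophage markers was 1649 against 263 to 403. The part of these cells in its values was not tested.

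Of the 31 other acute phase genes listed, 13 passed the filter in Plod1-/- mice and 8 rose and 1 fell under Ang II, with a median log2 fold change of 1.05 against 0.05 over all genes. Serpina3n rose by 3.80 (SE 0.47, limma adjusted p = 1.7e-04), Serpina3m by 3.71 and Lrg1, a leucine-rich glycoprotein of the acute phase, by 3.40. The value of Serpina3m, which overlaps Serpina3k on the same strand, is uncertain. Steap4, a metalloreductase of adipocytes and macrophages, rose by 2.29, and Itih3 fell by 1.48. Hpx, which encodes the heme-binding hemopexin and is the partner of haptoglobin in clearing heme and hemoglobin, rose by 1.22. The other 4 genes tested were not called, and 18 of the 31 did not pass the filter. A gene under 1 FPKM in all saline-treated mice passes the filter only where it is high under Ang II, so counts over the genes that passed are a description.

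In WT mice, 4 of the 12 acute phase genes that passed the filter rose and 0 fell, with a median of 0.36 against -0.14 over all genes. Those 4 were Orm3 (3.16), Lrg1 (2.19), C3 (1.25) and Steap4 (1.21). Without Ang II-treated replicate 1, 1 of 12 rose, 4 fell and 7 were not called, with a median of -0.10 against -0.16 over all genes. Orm3, the neighbor of Orm1, was then the one called as higher, by 2.81, while Itih4, Serpina3n, Mt1 and Slc39a14 fell by 1.61, 1.22, 2.04 and 1.06. Hp and Orm1 were called as higher in the same fit.

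Between the Ang II-treated genotypes, 1 of 14 acute phase genes was higher in Plod1-/- mice, the zinc transporter Slc39a14 (1.15), and 1 was lower, Orm3 (-2.19, SE 0.51, limma adjusted p = 0.010). Without Ang II-treated WT replicate 1 the count was 7 higher and 1 lower, with Serpina3n at 3.58, Serpina3m at 3.46, Lrg1 at 2.49 and Itih4 at 1.91. Orm3, at -1.84, was still the one called as lower, as Orm1 was with all mice. Orm3 ran from 2.25 to 29.4 FPKM in Ang II-treated WT mice and from 0.696 to 3.26 FPKM in Ang II-treated Plod1-/- mice, and it shares 2.21% of its 50-base runs with Orm1.

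**Figure D3:**
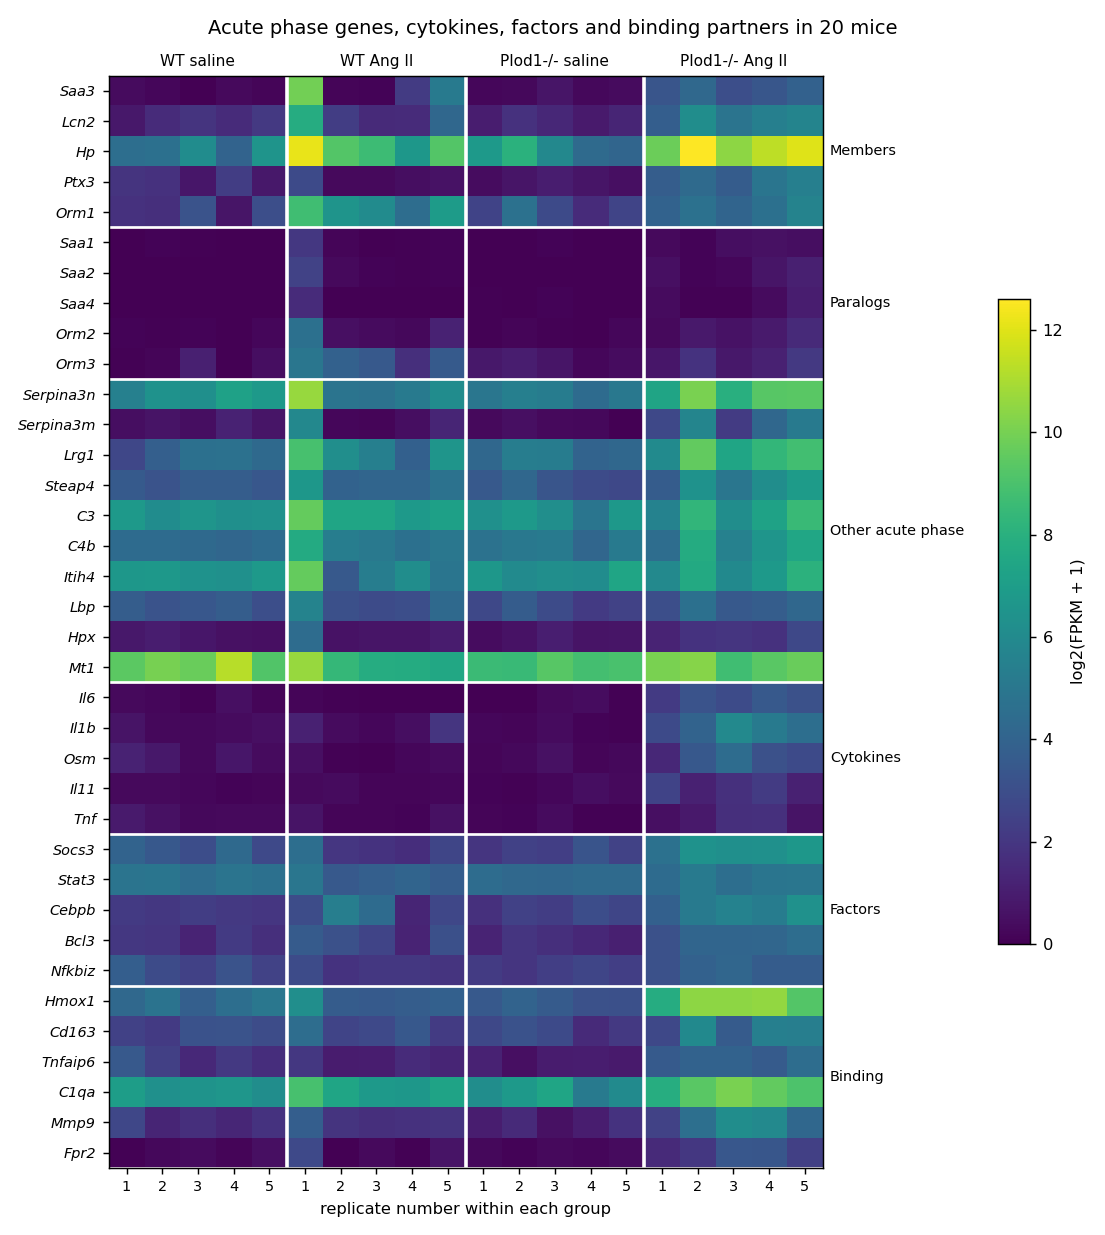
Log2(FPKM + 1) of the 5 genes and of 31 other acute phase genes, cytokines, factors and binding partners in 20 mice, as color from dark (0) to yellow, with mice as columns in 4 groups of 5. Column 1 of Ang II-treated WT mice is bright for the acute phase genes and dark for Il6 at 0.121 FPKM, whereas Il6, Il1b and Osm are raised in the 5 columns of Ang II-treated Plod1-/- mice.

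Of 9 cytokines known to induce these genes, Il6, Il1b, Osm and Il11 passed the filter, through the Ang II-treated Plod1-/- mice in which they were high. The other 5 did not pass it and were not tested. Il6 lay between 3.44 and 10.3 FPKM in Ang II-treated Plod1-/- mice and between 0 and 0.414 FPKM in the other 15 mice. It was 2.91 higher on the log2 scale in Ang II-treated Plod1-/- than in Ang II-treated WT mice (SE 0.21). Il1b was 3.65 and Osm, which encodes oncostatin M, 2.82 higher on the same scale. As the same Plod1-/- mice carried these genes past the filter, the differences are a description with no p-value. In WT mice 0 of the 9 cytokines passed the filter, so none was tested there.

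Of 9 cytokine receptors, 8 passed the filter and 3 were higher in Ang II-treated Plod1-/- than in Ang II-treated WT mice, Tnfrsf1b by 1.97, the interleukin 1 receptor Il1r1 by 1.39 and the interleukin 6 receptor Il6ra by 1.01. Of 11 transcription factors and feedback genes, 3 were higher, with a median of 0.76 against 0.12 over all genes. Socs3, the feedback inhibitor that STAT3 induces, was at 24.9 to 102 FPKM in Ang II-treated Plod1-/- mice and at 2.15 to 22.1 FPKM in Ang II-treated WT mice, 3.54 higher on the log2 scale (SE 0.55, limma adjusted p = 0.0022). Nfkbiz and Bcl3, regulators of NF-kB, were 1.58 and 1.27 higher. Cebpb, which encodes C/EBP beta, had a log2 fold change of 1.91 that was not called (SE 0.70, limma adjusted p = 0.058), and it rose by 2.84 under Ang II in Plod1-/- mice. Cebpb, Bcl3, Il1b and Il6ra lie opposite other annotated genes, and Il1r1 overlaps one on its own strand, so their values are uncertain.

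**Figure D4:**
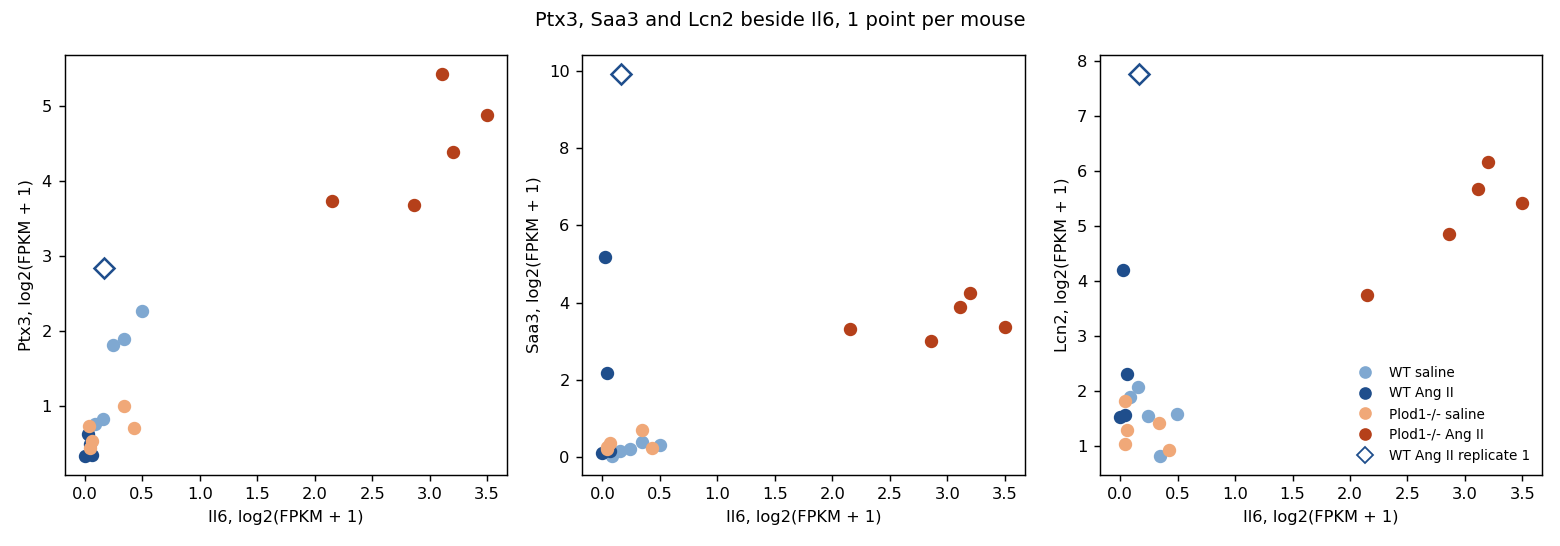
Log2(FPKM + 1) of Ptx3, Saa3 and Lcn2 against that of Il6, 1 point per mouse, colored by group. The 5 Ang II-treated Plod1-/- mice, with Il6 from 3.44 to 10.3 FPKM, stand apart on the right, and Ang II-treated WT replicate 1 (open diamond) is the highest for Saa3 and Lcn2 at 0.121 FPKM of Il6.

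Partners of the members' proteins were tested as a list of 12, of which 5 were higher and 0 lower in Ang II-treated Plod1-/- than in Ang II-treated WT mice. The median difference was 1.36 against 0.12 over all genes. One of the 12, Fpr2, passed the filter through the Ang II-treated Plod1-/- mice in which it was high, so the count is a description. Hmox1, which encodes heme oxygenase 1 and breaks down the heme that haptoglobin and hemopexin help to clear, was at 218, 1385, 1391, 1516 and 602 FPKM in Ang II-treated Plod1-/- mice and at 11.0 to 73.9 FPKM in Ang II-treated WT mice. The difference was 5.47 on the log2 scale (SE 0.64, limma adjusted p = 8.8e-04). Cd163, the receptor for the haptoglobin-hemoglobin complex, differed by 1.51 on the log2 scale (SE 0.64, limma adjusted p = 0.091), and 1.87 without Ang II-treated WT replicate 1 (limma adjusted p = 0.0435). The summed FPKM of 6 red blood cell markers was 764 to 9718 in Ang II-treated Plod1-/- mice and 185 to 666 in Ang II-treated WT mice, and its part in the values of Hp and Hmox1 was not tested.

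Tnfaip6, whose protein binds pentraxin 3, was at 11.0 to 21.5 FPKM in Ang II-treated Plod1-/- mice and 0.954 to 3.14 FPKM in Ang II-treated WT mice, 2.55 higher on the log2 scale (SE 0.24, limma adjusted p = 3.4e-04). C1qa, a chain of the C1q that pentraxin 3 also binds, was 1.75 higher. For the other partners of pentraxin 3 named above the groups overlapped. Fgf2 was at 4.98 to 18.0 FPKM in Ang II-treated Plod1-/- and 5.51 to 11.2 FPKM in Ang II-treated WT mice. Selp, which encodes P-selectin, was at 1.99 to 4.24 and 0.378 to 10.9 FPKM in the same order. Fgf2 overlaps another gene on its own strand, so its values are uncertain. Mmp9, the partner of lipocalin 2, was 2.48 higher (SE 0.66, limma adjusted p = 0.019). The value of Fpr2, a receptor for serum amyloid A, was 1.78 higher, given as a description. Fpr2 was at 1.81 to 9.74 FPKM in Ang II-treated Plod1-/- mice and at most 0.562 FPKM in Ang II-treated WT mice other than replicate 1. Under saline, Tnfaip6 and Hmox1 were lower in Plod1-/- mice by -1.31 and -1.0, and Slc22a17, a lipocalin 2 receptor, was 1.01 higher.

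Markers of several cell types moved with the same groups. All 8 macrophage markers rose under Ang II in Plod1-/- mice and were higher there than in Ang II-treated WT mice, with a summed FPKM of 847 to 4624 against 263 to 1649. One of them, Msr1, was at 1.82 to 18.9 FPKM in Ang II-treated Plod1-/- mice. It did not exceed 0.438 FPKM in saline-treated Plod1-/- mice or 0.352 FPKM in Ang II-treated WT mice other than replicate 1. Msr1 thus passed the filter in both comparisons through the mice in which it was high. The summed FPKM of 12 neutrophil markers was 158 to 728 in Ang II-treated Plod1-/- mice and 1.60 to 3.82 in saline-treated Plod1-/- mice. The 5 of these markers that passed the filter did so through the Ang II-treated mice. The neutrophil granule genes Ltf, Camp and Ngp, which maturing neutrophils transcribe together with Lcn2, did not exceed 0.71, 0.298 and 0.793 FPKM in Ang II-treated Plod1-/- mice, where S100a8 was at 41.0 to 209 FPKM. In Ang II-treated WT replicate 1 they were at 2.59, 2.82 and 18.4 FPKM. Other markers of the same list were higher in Ang II-treated Plod1-/- mice. There Mmp8 was at 0.936 to 12.4 FPKM, Cxcr2 at 1.48 to 15.6 FPKM and Csf3r at 4.28 to 65.5 FPKM. Ly6g, Mpo and Elane did not exceed 0.28, 0.495 and 1.23 FPKM in those mice. Smooth muscle markers moved the other way, since 6 of 7 fell under Ang II in Plod1-/- mice, with a median of -1.80, and 2 of 7 were lower there than in Ang II-treated WT mice. Ang II-treated Plod1-/- replicate 1 stood apart, with a smooth muscle sum of 16990 FPKM against 2326 to 6204 FPKM in the other 4 and a macrophage sum of 847 FPKM against 2272 to 4624 FPKM. It also had the lowest Lcn2, Hp and Orm1 of its group. Without it the log2 fold change in Plod1-/- mice was 4.24 for Lcn2 and 5.75 for Hp, and Orm1 between the Ang II-treated genotypes was no longer called (-1.78, limma adjusted p = 0.0673). The part of these cells in the values of the members was not tested.

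Adipocyte markers moved with Hp and Orm1 in WT mice. Of 8 markers, 7 passed the filter there and all 7 rose under Ang II, with a median log2 fold change of 3.55, and their summed FPKM was 125 to 645 under saline and 1253 to 5254 under Ang II. In Plod1-/- mice 4 of 8 rose, and the sum was 216 to 1806 under saline and 904 to 6782 under Ang II. Between the Ang II-treated genotypes 0 were higher and 1 was lower, with a median difference of -0.43 against 0.12 over all genes. Ucp1 was at 208 to 1879 FPKM in Ang II-treated WT mice and at 36.6 to 165 FPKM in Ang II-treated Plod1-/- mice. Plin1 had medians of 169 and 46.3 FPKM in the same order. The estimate was above 0 for 1 of the 8 markers. As adipose tissue is known to transcribe Hp and Orm1, the FPKM of both genes was divided by that of adipocyte genes of the same mouse. The ratio was chosen after the values were seen and is given with no test. Fabp4, Adipoq and Cidec were used, and no ratio to Ucp1 or Plin1 was taken.

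The ratio of Hp to Fabp4, a fatty acid-binding protein of adipocytes, was 0.225 to 0.550 in saline-treated WT mice and 0.161 to 0.692 in saline-treated Plod1-/- mice. In Ang II-treated WT mice it was 4.42 in replicate 1 and 0.389 to 0.491 in the other 4. In Ang II-treated Plod1-/- mice it was 3.71, 6.04, 5.52, 4.48 and 4.89. Per unit of Fabp4, Ang II-treated WT mice other than replicate 1 thus lay within the saline range, whereas Ang II-treated Plod1-/- mice and that replicate were all above every other mouse. The ratio to Adipoq, which encodes adiponectin, was 10.1 to 13.9 in Ang II-treated Plod1-/- mice, 12.8 in replicate 1 and 0.713 to 4.18 in the other 14 mice, and that to Cidec, a lipid droplet gene, was 6.98 to 16.3, 13.7 and 0.718 to 1.87.

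For each of the 3 adipocyte genes, the median ratio of Orm1 was lower in Ang II-treated Plod1-/- than in Ang II-treated WT mice. Those groups did not overlap for Fabp4, at 0.0246 to 0.0627 against 0.0726 to 0.406. They also did not for Adipoq, at 0.0413 to 0.173 against 0.235 to 1.18. They overlapped for Cidec, with medians of 0.166 and 0.197. Set against the 14 mice that leave out replicate 1, the order depended on the adipocyte gene. The ratio to Fabp4 in Ang II-treated Plod1-/- mice lay within their range of 0.00944 to 0.0980. To Adipoq it was 0.0413 to 0.173 against 0.113 to 0.365 in those 14, and to Cidec it was 0.0284 to 0.207 against 0.0742 to 0.331. Ang II-treated Plod1-/- replicate 2 alone lay below all 14 for Adipoq and for Cidec. Ang II-treated WT mice other than replicate 1 were above saline-treated WT mice per unit of Fabp4, at 0.0726 to 0.0980 against 0.00944 to 0.0585, but overlapped them per unit of Adipoq and of Cidec. Replicate 1 was the highest for all 3 genes, at 0.406, 1.18 and 1.25. The ratio of Lcn2 to Fabp4 was 0.0530 to 0.109 in Ang II-treated Plod1-/- mice and 0.00230 to 0.0314 in the 14 mice. With Adipoq, at 0.116 to 0.273 against 0.00739 to 0.554, and with Cidec, at 0.0800 to 0.321 against 0.00553 to 0.244, the ranges of Lcn2 overlapped.

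**Figure D5:**
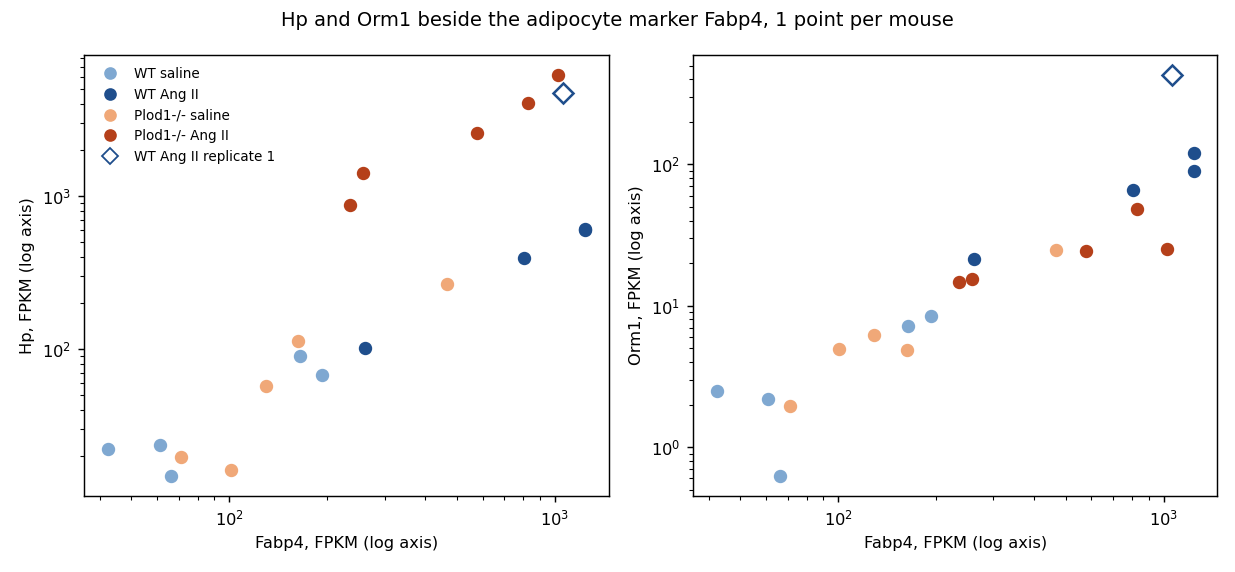
FPKM of Hp and Orm1 against that of the adipocyte marker Fabp4 (log axes), 1 point per mouse, colored by group, where Ang II-treated WT replicates 2 and 5 coincide for Hp. The Ang II-treated Plod1-/- mice and Ang II-treated WT replicate 1 (open diamond) lie above the other 14 mice for Hp, at ratios of 3.71 to 6.04 and 4.42, while for Orm1 replicate 1 alone lies above, at 0.406.

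The genes most like each member were taken by Pearson's correlation of log2(FPKM + 1) over 20 mice, which share 4 group means, among 13263 genes. For Saa3 they were Lcn2 (0.90), Hpx (0.89) and Fgl1 (0.88), and for Lcn2 they were Hook2 (0.96), Wfdc21 (0.95) and Fgl1 (0.95). For Hp they were Asns (0.96), Cxcl14 (0.95) and Lpcat3 (0.95), and for Orm1 they were Kng2 (0.97), Acaa1b (0.96) and Adtrp (0.94). Ptx3 was most like Acsl4 (0.98), Fbln2 (0.97) and Socs3 (0.97). Each list ends at 3 genes by rule, and the correlations are a description.

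When each mouse was set against its group mean, so that differences between groups no longer counted, Saa3 was most like Wfdc21 (0.93), Chil1 (0.92) and Lcn2 (0.90), and Lcn2 was most like Serpina3n (0.95), Wfdc21 (0.93) and Tnfsf13b (0.93). Hp was most like Kng2, Acaa1b and Abhd5 (all 0.91), and Orm1 was most like Acaa1b (0.90), Hp (0.90) and Cxcl14 (0.89). Ptx3 was most like Vmp1 (0.87), Cp (0.87) and Fbln2 (0.86). Among the members, the pairs with the highest correlation of these deviations were Saa3 with Lcn2 (0.90) and Hp with Orm1 (0.90). Ptx3 with Orm1 had the lowest correlation, at 0.33 for the deviations and 0.16 for the levels.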

How the data were processed

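The 5 genes, the gene lists and the tests were chosen with earlier results of these data known. By the paper's methods, the authors sequenced TruSeq libraries, which were not strand-specific, and discarded reads from ribosomal RNA. They used HISAT2 for alignment and made FPKM with stringtie, cuffquant and cuffnorm. The submitters' processing notes name HISAT2 2.1.0, Bowtie2 2.2.3, HTSeq 0.6.0 and mm10. The paper's methods name neither Bowtie2 nor HTSeq, so which of these tools gave the deposited FPKM is uncertain. The deposited FPKM values carry no read counts, so depth is unknown, and no interval or detection limit is given. A relative depth read from the lowest values ran from 0.913 to 1.07. Symbols came from GENCODE mouse release 21, which holds 43226 of 43422 genes. Groups and replicate numbers came from the labels. The labels do not say more of the mice than that they were separate samples.

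Values were tested as log2(FPKM + 1) with limma 3.58.1 in R 4.3.3 (eBayes with a variance trend, two-sided, Benjamini-Hochberg) on genes of at least 1 FPKM in at least 5 of the mice compared. Genes below that filter were given two-sided exact permutation tests, with no adjustment. The authors' edgeR test needs counts and was not run. The method was tested on simulated data drawn around the means and SDs of saline-treated WT mice. Such data lack an extreme mouse such as Ang II-treated WT replicate 1, so that test does not cover its effect. Named genes were the members, their paralogs, up to 5 genes per list with the largest change in a comparison, genes the members are known to bind or be induced by, cell type markers, and the 3 genes most like each member. Other genes named were chosen after their values were seen. Alternatives were a pseudocount of 0.1, no filter, a replicate block, no variance trend, weights per mouse, quantile normalization, mitochondrial genes left out, both libraries with Xist RNA left out, all 20 mice in one fit, exact permutation tests and each mouse left out in turn. Singling out Ang II-treated WT replicate 1 and the ratios to adipocyte genes were added after seeing the data. Figures were drawn with matplotlib 3.10.9.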

Additional observations from a re-analysis of the deposited data

Results flagged for a closer look

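On the FPKM scale, 7 highest values stood outside their group of 5 mice by Dixon's criterion, among 20 groups of the 5 genes, and on the log2 scale there was 1. Chance gives about 1 in 20 for normally distributed values, which was not checked for FPKM. Ang II-treated WT replicate 1 gave 5 of the 7, so these are not independent, with Saa3 at 973 FPKM, Lcn2 at 218 FPKM, Hp at 4689.9 FPKM, Ptx3 at 6.11 FPKM and Orm1 at 431 FPKM. In saline-treated Plod1-/- mice, Saa3 in replicate 3 was at 0.643 FPKM and Orm1 in replicate 2 was at 24.9 FPKM. For that Saa3 value the gap over the range was 0.710014 against a criterion of 0.71.

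The response to Ang II differed between genotypes for Ptx3 and Orm1, where 16.1% of all 13263 genes were called. The interaction was 4.32 for Ptx3 (limma adjusted p = 8.67e-05), with a higher response in Plod1-/- mice, and -2.70 for Orm1 (limma adjusted p = 0.0305), with a lower one, a call that held in 15 of the 20 fits that left out 1 mouse each. Ptx3 passed the filter through the Ang II-treated Plod1-/- mice, in which it was high.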

How the results depend on the processing

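The calls of Hp and Orm1 in WT mice and of Ptx3 between the Ang II-treated genotypes and in the interaction held under every alternative run and with each mouse left out. The call of Orm1 between the Ang II-treated genotypes (-1.94) was lost with no filter (-1.94, limma adjusted p = 0.113) and with a replicate block (-1.94, adjusted p = 0.0640). It was also lost without the libraries with Xist RNA (-1.78, adjusted p = 0.0673). Each of these left 1 member called. Of the libraries with Xist RNA, this comparison holds only Ang II-treated Plod1-/- replicate 1, so that fit is the same as leaving out that mouse. In the interaction the call of Orm1 was lost with no filter (-2.70, limma adjusted p = 0.0797) and without both libraries with Xist RNA (-2.61, adjusted p = 0.0530), again leaving 1 member. Lcn2 was gained with weights per mouse, at 2.23 (adjusted p = 0.0318) between the Ang II-treated genotypes and 2.71 (adjusted p = 0.0111) in the interaction. With all 20 mice in one fit, Saa3 in WT mice was past the thresholds, at 3.29. It passed the filter of that fit through the Ang II-treated Plod1-/- mice by which it was picked, so no p-value is given for it. With the WT mice alone its exact permutation p was 0.127. With a pseudocount of 0.1, Ptx3 under saline was counted as called at -1.41 (1 member), by an exact permutation test with no adjustment. Saa3 and Ptx3 in Plod1-/- mice moved to 4.89 and 4.90. The other causes were not tested.

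The count of DEGs between the Ang II-treated genotypes was 1373, and 2134 with weights per mouse. That under saline was 92, against 149 with a pseudocount of 0.1, 41 with no filter and 52 with all 20 mice in one fit. It was 60 without saline-treated Plod1-/- replicate 5, the library of that comparison with Xist RNA. Quantile normalization moved the split of higher and lower DEGs from 1034 and 680 to 887 and 880 in Plod1-/- mice, from 920 and 453 to 733 and 632 between the Ang II-treated genotypes and from 1285 and 844 to 981 and 1146 in the interaction.

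With each mouse left out in turn, the log2 difference in WT mice ran from 1.68 to 4.14 for Saa3 and from -1.06 to -0.39 for Ptx3. Between the Ang II-treated genotypes it ran from 1.22 to 2.78 for Lcn2 and from -2.46 to -1.39 for Orm1, with 1 to 2 members called. Under saline it ran from -1.02 to -0.64 for Ptx3, with 0 to 1 members called and 38 to 104 DEGs. In the interaction it ran from 1.5 to 3.07 for Lcn2 and from -3.21 to -2.15 for Orm1, with 1 to 3 members called.

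Mice of 1 number deviated together, with a correlation above 0.1, in at most 2 of 5 pairs per comparison. The highest were 0.421 and 0.372, for replicates 2 and 3 of the Plod1-/- mice. The main fits used no pairing, and 5 pairs per comparison cannot show whether mice of 1 number were handled together. The replicate block changed no other call of a member, and the DEGs under saline were 63. Depth is unknown, so values under 1 FPKM, such as Saa3 under saline, give no firm fold.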

Other observations

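Among the saline-treated WT mice, replicates 1, 2 and 4 had Ptx3 at 2.51 to 3.81 FPKM and Socs3 at 10.1 to 18.6 FPKM, whereas replicates 3 and 5 had Ptx3 at 0.687 and 0.760 FPKM and Socs3 at 6.92 and 5.88 FPKM. The same replicates 3 and 5 had the highest Hp of the group, at 68.1 and 90.4 FPKM, the highest Orm1, at 8.47 and 7.13 FPKM, and the highest Fabp4, at 192 and 164 FPKM. These values were noticed after the data were seen and were not tested.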
